A study of Homo sapiens with 17 samples.

Results

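The NF-κB subunit genes NFKB1, NFKB2, REL, RELA and RELB were followed in MDA-MB-231 cells over 24 h with TRAIL. They are the 5 genes that encode the DNA-binding subunits of this transcription factor family, and they were chosen by symbol from the 58870 entries of the deposited count table. All 5 had enough counts to be tested, among 15365 genes tested.

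MDA-MB-231 is an established line of human breast cancer cells of the triple-negative kind, without the oestrogen and progesterone receptors and without amplified HER2, and the labels class it as mesenchymal, basal B. TRAIL is a ligand of the TNF family that engages death receptors and can start apoptosis; it was given at 45 nM, a dose that the study chose to be suboptimal so that living cells were measured. Polyadenylated RNA was sequenced from 3 libraries each at 0, 3, 6, 12 and 24 h and from 2 libraries at 1 h. The design asks how the transcriptome of this line responds to TRAIL over time, and the title of the series names the NFKB2 pathway. All 17 libraries came from the same unmodified line in serum-containing RPMI medium and carry the same treatment label, 0 h included. There were 0 untreated libraries at the later times, so time with TRAIL and time in culture cannot be told apart. The labels call the libraries at a time replicates without saying whether they came from separate cultures, and the p-values then measure only the spread between these libraries, which may be technical.

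NF-κB works as dimers of these subunits. NFKB1 and NFKB2 encode the precursors p105 and p100, whose carboxy-terminal ankyrin repeats hold NF-κB in the cytoplasm and whose processing gives p50 and p52. RELA, RELB and REL encode p65, RelB and c-Rel, which carry the transactivation domains. In the canonical pathway, the IKK complex marks IκB proteins for degradation and frees dimers such as p50 with p65. In the non-canonical pathway, the kinase NIK leads to the processing of p100 and frees p52 with RelB. Death receptors can engage NF-κB besides caspases, and several subunit and inhibitor genes are textbook NF-κB targets.

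The promoter windows of the members were searched for the NF-κB consensus motif, of 10 bases, on both strands. They were RefSeq windows of 300 bases (250 before to 50 after an annotated start, GRCh38.p14). Any link between matches and time course was not tested. Windows were held for 4 of the 5 members, with none for RELB. Of their 8 windows, 4 held at least 1 match (50%), against 5.91% of all 35116 windows of this length. NFKB2 alone had 3 of the windows, 2 of them with a match. Counted by gene, 3 of the 4 members held a match (75%), against 7.09% of all 27305 genes. The matched stretches are shown with the matched bases in capitals; overlapping matches are printed as 1 run.
REL, chr2:60881518-60881546, plus strand: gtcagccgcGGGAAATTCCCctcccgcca
NFKB1, chr4:102501301-102501328, plus strand: gacgtcagtGGGAATTTCCagccaggaa
NFKB2, start 2, chr10:102394462-102394490, plus strand: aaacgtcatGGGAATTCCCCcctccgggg
NFKB2, start 2, chr10:102394491-102394518, plus strand: ggccgagaaGGGGCTTTCCcggccctga
NFKB2, start 3, chr10:102395520-102395547, plus strand: acccccaccGGGGCTTCCCggattctcc
NFKB2, start 3, chr10:102395675-102395702, plus strand: ggtattttcGGGACTTTCCtaagctgct
Distances to a start refer to the RefSeq starts of these windows, which differ from the GENCODE 29 gene limits given with each member. The first matched base lay 47 bases before the RefSeq start of REL and 49 before that of NFKB1. In NFKB2 it lay 107 and 78 bases before start 2, and 176 and 21 bases before start 3, in the order of the RefSeq windows. The runs in REL and in the first stretch of NFKB2 each hold overlapping matches on opposite strands. In GENCODE 29, 26 of the 29 bases of the REL stretch lie in an annotated exon of REL itself, as do all bases of both stretches at start 2 of NFKB2 in exons of that gene and 10 of the 28 bases of the last stretch. For NFKB1, 19 of the 28 bases lie in an exon of the opposite-strand entry AF213884.3. Neither of the 2 windows of RELA held a match. A match is a run of letters and not a measured binding site, and no binding was measured here. Among the other NF-κB pathway genes described further on, 10 of the 23 with a window held a match (43.5%), against 7.09% of all 27305 genes.

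Total counts ran from 13731497 to 19234939 per library, and the common biological coefficient of variation between replicates was 7.06%. Replicates 2 and 3 at 6 h and replicates 2 and 3 at 24 h lay closer to each other than any other replicate pair. Their chi-square statistic per gene was 1.57 and 1.67, against 3.68 to 13.5 for the other pairs, where sampling noise alone gives about 1; they were kept apart, and results that change when each pair counts as 1 library are named. Libraries also differed in how level related to transcript length: the slope of log2 level on log2 length, relative to the mean library, averaged -0.048, -0.080, -0.10, 0.085, 0.015 and 0.10 in time order from 0 to 24 h. The mitochondrial share of counts averaged 6.75%, 8.68%, 8.59%, 4.49%, 5.72% and 3.90% in the same order. The part of these technical measures in the results was not tested beyond a fit with length and GC trends removed, which is given wherever it changed a call of a member. Of the 7 markers listed for the line, VIM, CD44, AXL, MSN and CAV1 were abundant in every library (MSN, the lowest of them, from 613 CPM) and ZEB1 stood at 31.9 to 65.8 CPM, but SPARC had only 4 to 17 counts. ESR1, PGR and FOXA1 had at most 2 counts in any library, ERBB2 lay between 56.4 and 70.9 CPM and GATA3 between 6.97 and 12.1 CPM. CDH1 had 4 to 16 counts and EPCAM 13.1 to 19.3 CPM. The leukocyte markers PTPRC, CD3E and LYZ had at most 6 counts in any library; of the endothelial markers, VWF had at most 5 and PECAM1 11 to 68.

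The members rose together by 6 h, fell together by 12 h, and 3 of them were higher again at 24 h. A gene is called when its edgeR quasi-likelihood p-value, adjusted over all genes tested, is below 0.05, and levels are in CPM, that is, counts scaled to a common TMM-adjusted library size. At 1 h, 0 of 5 members were called against 0 h, where 0.312% of genes tested were called in either direction (0 also at an unadjusted p below 0.05, by DESeq2 and by limma-voom). At 3 h, NFKB1, NFKB2 and RELB were called higher, 3 of 5 against 9.04% of genes tested. At 6 h all 5 were called higher, against 16.9% of genes. At 12 h, NFKB2 and RELB were called higher, 2 of 5 against 5.96% of genes. At 24 h, NFKB1, NFKB2 and RELB were called higher, 3 of 5 against 18.0% of genes. None was called lower than 0 h at any time, by edgeR, DESeq2 or limma-voom, and 0 were lower at an unadjusted edgeR p below 0.05. Of all genes tested, edgeR called 0.0521%, 8.71%, 13.2%, 6.48% and 17.1% lower at 1, 3, 6, 12 and 24 h. Members whose libraries lay wholly above those at 0 h numbered 1, 4, 5, 2 and 4 at the 5 later times in order, where this held for 10.1%, 17.2%, 22.7%, 16.9% and 22.9% of all genes. The median log2 fold change of the members was 0.60, 0.99, 0.16 and 0.61 at 3, 6, 12 and 24 h, while that of all genes tested lay between -0.02 and 0.00. In bulk RNA, a change in the share of cells of one state and a change in RNA per cell cannot be told apart.

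**Figure D1:**
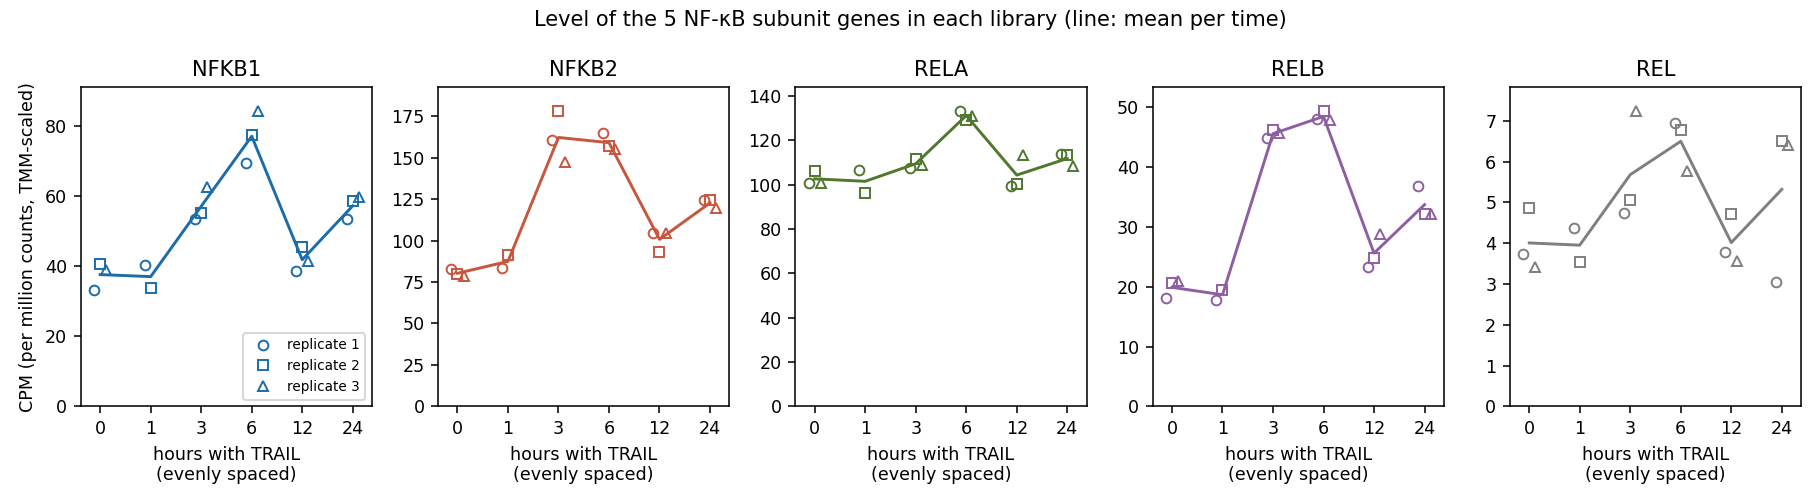
Level of each subunit gene in every library (CPM, linear axis from 0, of its own range for each gene) against time with TRAIL in hours, evenly spaced; each point is 1 library, its shape gives the replicate number, and the line joins the means at each time. NFKB2 and RELB are near their highest levels at 3 and 6 h, NFKB1, REL and RELA have their highest mean at 6 h, and all 5 means are lower at 12 h than at 6 h.

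NFKB2 (Ensembl ENSG00000077150), which encodes p100 and p52, maps to GRCh38 chromosome 10, from 102394110 to 102402529 on its plus strand, with 23 merged exons. It stood at 82.7, 79.8 and 78.4 CPM at 0 h and at 83.4 and 91.6 CPM at 1 h. At 3 h it reached 161, 178 and 148 CPM, and at 6 h 165, 157 and 155 CPM. At 12 h it was 104, 93.3 and 105 CPM, and at 24 h 124, 124 and 119.6 CPM. Every library from 1 h onward lay above every library at 0 h, although the 1 h difference was small and not called (log2 fold change 0.12 ± 0.08 SE, edgeR adjusted p = 0.987). NFKB2 was 2.02-fold higher at 3 h (log2 1.01 ± 0.07 SE, edgeR adjusted p = 2.72e-09) and 1.98-fold higher at 6 h (log2 0.99 ± 0.07, adjusted p = 6.95e-09). The 3 h and 6 h libraries overlapped, with a log2 difference of -0.028 ± 0.066 (adjusted p = 0.758). It then fell, with a log2 difference of -0.66 from 6 to 12 h (edgeR adjusted p = 1.66e-06), to a level still 1.25-fold above 0 h (adjusted p = 0.00384). From 12 to 24 h it rose by 0.29 on the log2 scale (edgeR adjusted p = 0.0102; 0.0551 with each close pair averaged), and at 24 h it was 1.53-fold above 0 h (adjusted p = 3.83e-06).

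NFKB1 (ENSG00000109320), which encodes p105 and p50, maps to GRCh38 chromosome 4, from 102501329 to 102617302 (plus strand), with 28 merged exons. Its libraries were at 33.2, 40.7 and 38.8 CPM at 0 h and at 40.3 and 33.6 CPM at 1 h. They were at 53.5, 55.1 and 62.5 CPM at 3 h and at 69.4, 77.3 and 84.2 CPM at 6 h. They were at 38.6, 45.4 and 41.3 CPM at 12 h and at 53.4, 58.5 and 59.5 CPM at 24 h. The 3, 6 and 24 h libraries all lay above the 0 h libraries, while those at 1 and 12 h overlapped them. NFKB1 was 1.52-fold higher at 3 h (log2 0.60 ± 0.10 SE, edgeR adjusted p = 2.71e-04) and 2.05-fold higher at 6 h (log2 1.04 ± 0.09, adjusted p = 3.74e-07). The step from 3 to 6 h was itself called, at 0.43 on the log2 scale (edgeR adjusted p = 0.00102). From 6 to 12 h the log2 difference was -0.88 (adjusted p = 3.06e-06), and at 12 h the level did not pass the test against 0 h (log2 0.16 ± 0.10, adjusted p = 0.306). NFKB1 rose again by 0.45 from 12 to 24 h (edgeR adjusted p = 0.00556), to 1.52-fold above 0 h (adjusted p = 1.38e-04).

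RELB (ENSG00000104856) encodes RelB, the usual partner of p52 and p100, and maps to GRCh38 chromosome 19, from 45001430 to 45038198 (plus strand), with 12 merged exons. It was measured at 18.2, 20.6 and 21.0 CPM at 0 h and at 17.8 and 19.5 CPM at 1 h. The 3 h libraries held 44.9, 46.3 and 45.7 CPM and the 6 h libraries 48.1, 49.4 and 48.0 CPM. The 12 h libraries held 23.3, 24.7 and 28.8 CPM and the 24 h libraries 36.8, 32.2 and 32.2 CPM. All libraries from 3 h onward lay above those at 0 h. RELB had the highest fold change of the 5 at 3 h, 6 h and 24 h: 2.29-fold (log2 1.20 ± 0.08 SE, edgeR adjusted p = 6.33e-09), 2.44-fold (log2 1.28 ± 0.08, adjusted p = 5.42e-09) and 1.70-fold (log2 0.76 ± 0.09, adjusted p = 4.35e-06). Its log2 difference from 6 to 12 h was -0.92 (edgeR adjusted p = 3.19e-07), and from 12 to 24 h it rose by 0.40 (adjusted p = 0.00533). At 12 h its fold change was again the highest of the 5, at 1.29-fold above 0 h (log2 0.37 ± 0.09, edgeR adjusted p = 0.00948). That call was lost without replicate 1 at 0 h (adjusted p = 0.0634) or replicate 3 at 12 h (0.0551), and the difference was 0.58 (1.14e-04) with length and GC trends removed. From 3 to 6 h, RELB differed by 0.09 (adjusted p = 0.384), or by 0.30 (0.00341) with those trends removed.

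RELA (ENSG00000173039), which encodes p65, maps to GRCh38 chromosome 11, from 65653596 to 65663094 (minus strand), with 7 merged exons, of which 9 bases overlap the opposite-strand entry AP001362.2. Its libraries were at 100.9, 106 and 100.5 CPM at 0 h, at 107 and 96.4 CPM at 1 h, and at 108, 112 and 109 CPM at 3 h. They were at 133, 129 and 131 CPM at 6 h, at 99.2, 100.4 and 113 CPM at 12 h, and at 114, 113 and 108 CPM at 24 h. The 6 h libraries stood above every other library, and the remaining times lay close together. RELA was called only at 6 h against 0 h, where it was 1.28-fold higher (log2 0.35 ± 0.06 SE, edgeR adjusted p = 2.29e-04). It rose by 0.26 from 3 to 6 h (adjusted p = 0.00141) and fell by 0.33 from 6 to 12 h (adjusted p = 5.43e-04). At 3 h (log2 0.09 ± 0.06, adjusted p = 0.290) and at 24 h (log2 0.12 ± 0.06, adjusted p = 0.105) it was not called by edgeR, although those libraries did not overlap the 0 h libraries. At 24 h it was called with library size as the only scaling (log2 0.20, adjusted p = 0.0167) and with length and GC trends removed (0.18, 0.00781).

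REL (ENSG00000162924), which encodes c-Rel, a subunit best known from lymphoid cells, was the scarcest member, with 52 to 110 counts per library. It maps to GRCh38 chromosome 2, from 60881521 to 60931610 (plus strand), with 12 merged exons, and 5702 of its exon bases are also annotated to the same-strand entry AC010733.2, a 3′ overlapping noncoding RNA. The counts of both entries were not whole in 16 of 17 libraries, as when fragments are divided between entries, and those of the other 4 members were whole in every library. REL was at 3.73, 4.86 and 3.42 CPM at 0 h, at 4.37 and 3.53 CPM at 1 h, and at 4.75, 5.05 and 7.24 CPM at 3 h. It was at 6.95, 6.77 and 5.77 CPM at 6 h, at 3.77, 4.72 and 3.55 CPM at 12 h, and at 3.04, 6.51 and 6.41 CPM at 24 h. The 6 h libraries lay above those at 0 h and 12 h, and replicate 1 at 24 h was the lowest of all 17. REL was 1.62-fold higher at 6 h than at 0 h (log2 0.69 ± 0.23 SE, edgeR adjusted p = 0.0318), and its log2 difference from 6 to 12 h was -0.68 ± 0.23 (adjusted p = 0.0433).

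Both calls of REL were close to the threshold. The 6 h call was lost without replicate 1 or 3 at 0 h (edgeR adjusted p = 0.103 and 0.104) and without replicate 1 or 2 at 6 h (0.0730 and 0.0894). It was also lost with each close pair averaged (log2 0.70, adjusted p = 0.0701) and with length and GC trends removed (log2 0.46, 0.0850), where REL was instead called at 3 h (log2 0.58, 0.0432). The fall from 6 to 12 h was lost without replicate 1, 2 or 3 at 6 h and without replicate 1 or 3 at 12 h (adjusted p from 0.0649 to 0.139). It was also lost with library size only (0.0675), by limma-voom (0.0504) and with each close pair averaged (0.0878). At 24 h the difference from 0 h was not called (log2 0.40 ± 0.24, adjusted p = 0.204), and without replicate 1 at 24 h it was (log2 0.69, 0.00856). With REL and AC010733.2 summed, an alternative chosen after seeing the data, the sum was called higher at 6 h (log2 0.60, edgeR adjusted p = 0.00590) and at 24 h (log2 0.55, 0.00858), and its difference from 6 to 12 h was -0.42 (0.0482). AC010733.2 counted apart rose at 24 h (log2 0.77 ± 0.21, adjusted p = 0.00945), from 2.68, 1.43 and 3.30 CPM at 0 h to 3.86, 5.02 and 3.74 CPM.

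**Figure D2:**
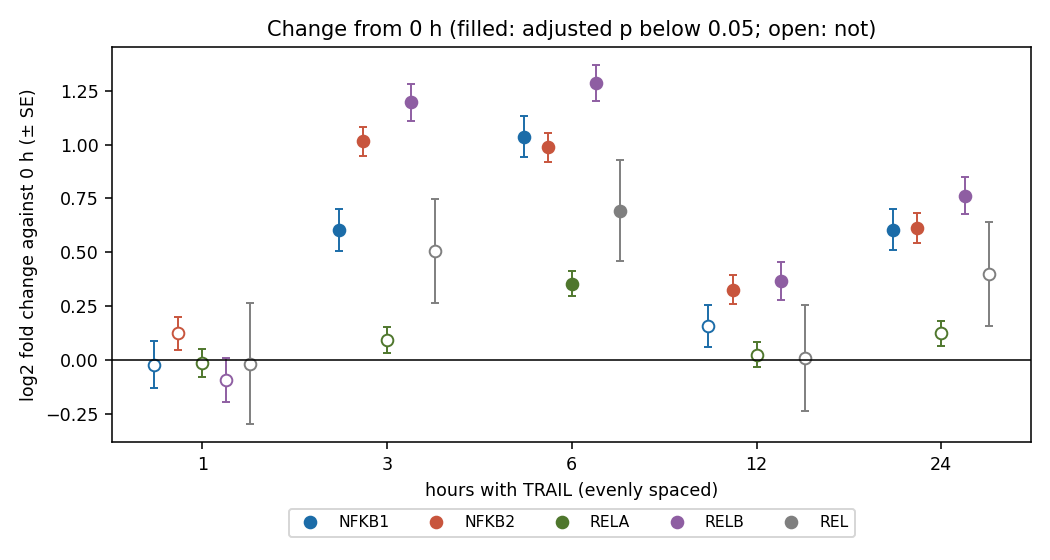
Log2 fold change of each subunit gene against 0 h (edgeR, vertical axis) at 1, 3, 6, 12 and 24 h (horizontal axis, evenly spaced); whiskers are 1 standard error, and filled points have an adjusted p below 0.05. RELB and NFKB2 stand at 0.99 or above at 3 and 6 h, NFKB1 reaches 1.04 only at 6 h, and RELA does not exceed 0.35.

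Between consecutive times, the members moved in steps that were not all the same. From 1 to 3 h, NFKB1 (log2 0.62), NFKB2 (0.89) and RELB (1.29) were called higher (edgeR adjusted p = 0.00138, 4.42e-07 and 7.31e-08), 3 of 5 against 3.17% of genes tested, and REL (0.52) and RELA (0.11) were not. From 3 to 6 h, NFKB1 and RELA were called higher, 2 of 5 against 22.9% of genes. From 6 to 12 h, all 5 fell, against 11.9% of genes called lower, and the libraries of all 5 lay wholly lower at 12 h, against 20.1% of genes; limma-voom called 4 of them, with an adjusted p of 0.0504 for REL. From 12 to 24 h, NFKB1, NFKB2 and RELB were called higher, 3 of 5 against 6.42% of genes. Consecutive comparisons share libraries with each other and with those against 0 h. In a test of any difference among the 6 times, all 5 members passed (edgeR adjusted p = 2.79e-10 for RELB, 8.19e-10 for NFKB2, 1.44e-07 for NFKB1, 1.97e-04 for RELA and 0.0449 for REL), as did 64.2% of all genes tested. REL did not pass it by limma-voom (0.0724) or with each close pair averaged (0.0890).

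Whether 2 members differed in time course was tested on their log2 ratio within each library, by a permutation test of its variation between times over all 17 libraries, adjusted over the 10 pairs. Apart from the prior count of 2 added before taking logs, the ratio of 2 members in 1 library does not depend on how that library was scaled. RELB over RELA varied most clearly, with a permutation p of 1e-05, the smallest that the test can give (adjusted p = 1e-04). This log2 ratio of CPM values was -2.36 ± 0.11 (SD, n = 3) in the 0 h libraries. It became -1.26 ± 0.01 at 3 h and -1.43 ± 0.04 by 6 h, then -2.02 ± 0.06 at 12 h and -1.73 ± 0.10 by 24 h. RELB thus gained on RELA at 3 h by 1.10 on the log2 scale and lost most of that gain by 12 h. NFKB2 over RELA varied likewise (permutation p = 2e-05, adjusted p = 1e-04), from -0.35 ± 0.06 (0 h) to 0.56 ± 0.12 (3 h), -0.05 ± 0.11 (12 h) and 0.14 ± 0.01 (24 h). NFKB1 over RELA also varied (permutation p = 3.8e-04, adjusted p = 0.00127), with its highest ratio later, at 6 h (-0.77 ± 0.15, against -1.45 ± 0.13 and -0.94 ± 0.12 at 0 and 3 h).

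Among the 3 members that rose at 3 h, RELB gained on NFKB1 at that time. The log2 ratio of RELB over NFKB1 was -0.91 ± 0.06 (SD, n = 3), -0.32 ± 0.12 and -0.66 ± 0.14 at 0, 3 and 6 h, and its variation between times passed the permutation test (adjusted p = 0.0236). That call was lost without replicate 1 or 2 at 3 h (adjusted p = 0.0718 and 0.0742). NFKB2 over RELB passed as well (permutation adjusted p = 0.0279), with log2 ratios of 2.01 ± 0.15 at 0 h, 2.22 at 1 h and 1.71 ± 0.06 at 6 h. This second call was lost without either 1 h library, replicate 1 at 3 h, or replicate 2 or 3 at 6 h (adjusted p from 0.0572 to 0.0751), and with each close pair averaged (0.0818). NFKB2 over NFKB1 did not pass (permutation adjusted p = 0.231). None of the 4 ratios with REL passed (adjusted p from 0.313 to 0.674), which does not show that REL had the time course of the others. The ratio of RELB over REL did pass without replicate 1 at 24 h (0.0378), with length and GC trends removed (0.0132) and with AC010733.2 added to REL (0.0218).

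**Figure D3:**
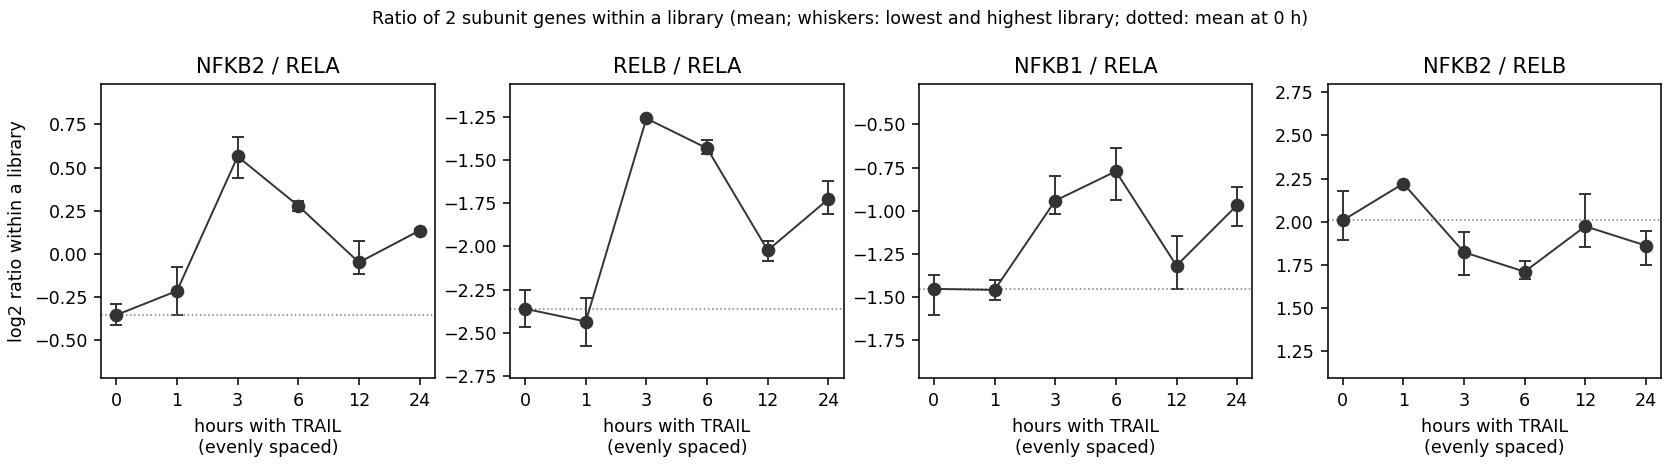
Log2 ratio of NFKB2, RELB and NFKB1 over RELA and of NFKB2 over RELB within a library (vertical axes, each with its own offset, from log2 CPM) against time with TRAIL in hours, evenly spaced; points are means, whiskers run from the lowest to the highest library, and the dotted line is the mean at 0 h. The ratios of NFKB2 and RELB over RELA have their highest mean at 3 h and that of NFKB1 at 6 h, and NFKB2 over RELB is highest at 1 h (2.22) and lowest at 6 h (1.71).

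Levels were compared between members as CPM per kilobase of merged exon, since longer transcripts give more fragments. At 0 h, RELA (18.8 ± 0.59, SD, n = 3) and NFKB2 (17.9 ± 0.49) had the highest levels and overlapped, RELB (6.56 ± 0.50) and NFKB1 (6.00 ± 0.62) came next and overlapped, and REL was lowest at 0.304 ± 0.057. The same 2 pairs overlapped at 1 h. From 3 h onward the order was NFKB2, RELA, RELB, NFKB1 and REL at every time, with no overlap between neighbours on this scale, although at 12 h the lowest NFKB2 library (20.8) was barely above the highest RELA library (20.7). At 3 h these levels were 36.2 ± 3.43 for NFKB2, 20.02 ± 0.38 for RELA, 15.03 ± 0.23 for RELB, 9.11 ± 0.77 for NFKB1 and 0.431 ± 0.10 for REL. With the length of the longest transcript in place of merged exons, RELA and not NFKB2 came first at 1 and 12 h, and NFKB1 stood above RELB at 0 and 1 h. On that scale RELA and NFKB2 no longer overlapped at 0 h (lowest RELA library 31.6, highest NFKB2 library 24.2) or at 1 h. At 24 h they did overlap (NFKB2 from 35.02, RELA up to 35.7), and RELB and NFKB1 overlapped at 12 h and at 24 h (RELB from 14.02, NFKB1 up to 14.6).

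Summed over the 5 genes, the level per kilobase was 49.5 ± 1.23 (SD, n = 3) in the 0 h libraries, 80.8 ± 3.36 by 3 h and 88.3 ± 0.38 by 6 h, then 57.0 ± 2.98 at 12 h and 68.5 ± 1.23 by 24 h. The 3 libraries at each time from 3 h onward all lay above those at 0 h. The share of RELA in this sum went from 37.9 ± 0.46% at 0 h to 24.8 ± 0.64% by 3 h and 27.2 ± 0.31% by 6 h, and was 33.5 ± 0.82% and 29.9 ± 0.32% in the last 2 times. NFKB2 made up 36.2 ± 1.64% at 0 h and 44.7 ± 2.55% at 3 h, and RELB 13.2 ± 0.85% and 18.6 ± 0.58%. The share of NFKB1 was 12.1 ± 1.01%, 11.3 ± 1.25% and 13.9 ± 1.36% at 0, 3 and 6 h, and the libraries at 3 and 6 h each overlapped those at 0 h. REL made up at most 0.725% in any library. With the length of the longest transcript in place of merged exons, RELA made up 43.6% and NFKB2 31.8% at 0 h. On that scale their shares were 29.6% and 40.8% at 3 h, and 39.0% and 35.1% at 12 h. These shares are of mRNA and say nothing of the amounts of protein or of dimers.

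**Figure D4:**
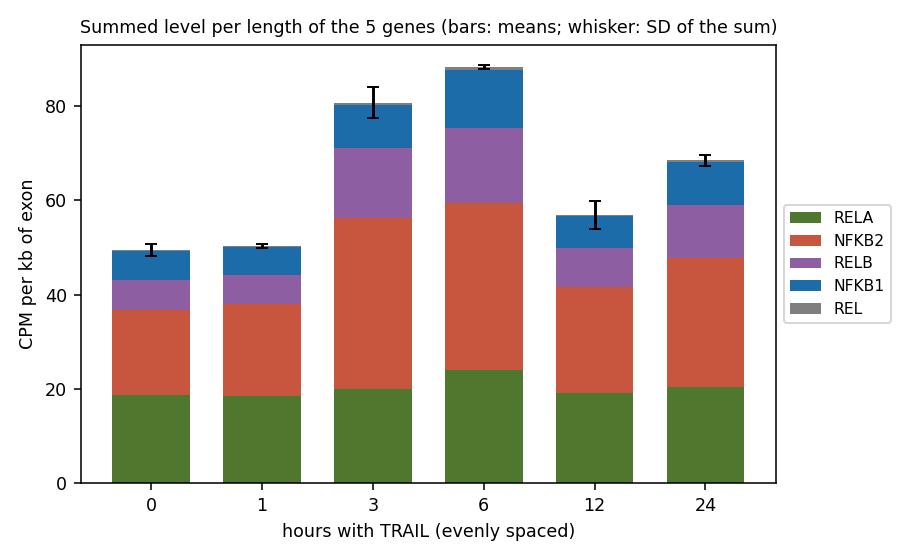
Mean level per kilobase of merged exon (CPM per kb, vertical axis from 0) of the 5 subunit genes stacked at each time with TRAIL (horizontal axis, hours, evenly spaced); the whisker is the SD of the sum between libraries. The stack is highest at 6 h (88.3), and NFKB2 and RELB account for most of its growth from 0 h (49.5).

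The other genes of the pathway were described from a list of 27 genes in 4 roles, all of which were tested. Genes called higher than 0 h numbered 2, 15, 18, 10 and 14 at 1, 3, 6, 12 and 24 h, beside 0.260%, 9.04%, 16.9%, 5.96% and 18.0% of all genes. Genes called lower numbered 0 at 1, 3 and 6 h, 1 at 12 h and 2 at 24 h, where the shares of all genes were 0.0521%, 8.71%, 13.2%, 6.48% and 17.1%. At an unadjusted p below 0.05, 0, 0 and 1 were lower at those first 3 times, and DESeq2 called 0, 0 and 1. The median log2 fold change of the list was 0.02, 0.34, 0.41, 0.13 and 0.28 at the 5 times.

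The 6 inhibitors and co-regulators were all called higher at 3 h, beside 9.04% of all genes, with a median log2 fold change of 0.96. Against 0 h, 5, 3 and 3 of them were called higher at 6, 12 and 24 h, beside 16.9%, 5.96% and 18.0% of all genes. NFKBIA, which encodes IκBα and is a classical NF-κB target, was already higher at 1 h (log2 0.68 ± 0.07 SE, edgeR adjusted p = 7.97e-06), before any member was called. Its mean of 44.3 CPM in the 0 h libraries compared with 71.0 CPM at 1 h and, by 3 h, 116 CPM (log2 1.39, adjusted p = 1.51e-11). NFKBIE, another IκB, rose by 1.29 on the log2 scale at 3 h (adjusted p = 4.50e-11). NFKBIB, the IκB with the lowest fold change of the group, was 0.34 higher at 3 h (edgeR adjusted p = 0.0169). That call was lost without replicate 3 at 0 h or replicate 1 or 2 at 3 h (adjusted p from 0.0519 to 0.108), and at 24 h its value was -0.05 (0.724). BCL3, a nuclear IκB that binds p50 and p52, was 0.93 higher at 24 h (edgeR adjusted p = 7.61e-06). From 3 to 6 h, 5 of the 6 inhibitors and co-regulators were called lower, all but NFKBIB, beside 20.3% of all genes, while 0 members were.

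Of the 5 kinases of the list, 1, 2, 0 and 3 were called higher at 3, 6, 12 and 24 h, beside 9.04%, 16.9%, 5.96% and 18.0% of all genes. MAP3K14, which encodes NIK, the kinase of the non-canonical pathway, was higher at 3 h (log2 0.53, edgeR adjusted p = 3.15e-05) and at 24 h (0.39, 4.24e-04). CHUK, which encodes IKKα, was 0.38 higher at 24 h (edgeR adjusted p = 0.0242), a call lost without replicate 1 or 2 at 0 h or replicate 2 or 3 at 24 h (0.0557 to 0.112) and at 0.25 (0.0186) with length and GC trends removed. IKBKG, the regulatory subunit of IKK, was at 0.14 at 3 h (adjusted p = 0.224) and at -0.0031 at 24 h (0.983), and was called at 24 h with those trends removed (0.20, 0.0104). MAP3K7, which encodes the upstream kinase TAK1, was at -0.0083 at 3 h (edgeR adjusted p = 0.965). The counts of MAP3K14 and IKBKG were not whole in 15 of 17 libraries.

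Among the 7 adaptors, 3, 5, 1 and 2 were called higher at 3, 6, 12 and 24 h, beside 9.04%, 16.9%, 5.96% and 18.0% of all genes. TRAF1, a TRAF family member known as an NF-κB target, had a mean of 16.6 CPM at 0 h and of 47.8 CPM at 3 h (log2 1.53, edgeR adjusted p = 4.50e-11). Its mean was highest at 6 h, with 73.6 CPM (log2 2.15, adjusted p = 2.09e-13), and still 50.3 CPM by 24 h (1.60, 2.77e-11). TRAF2, which recruits ubiquitin ligases to TNF family receptors, was 0.36 higher at 3 h (edgeR adjusted p = 0.00328). TRAF3, which helps to keep NIK low, was 0.46 higher at 24 h (adjusted p = 1.08e-04). RIPK1, a kinase that serves as a scaffold, was at -0.10 at 3 h (adjusted p = 0.461). TRAF5 was at -0.12 at 24 h (edgeR adjusted p = 0.372), and was called lower with length and GC trends removed (-0.26, 0.0254).

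Of the 9 ubiquitin regulators, 5 were called higher at 3 h, beside 9.04% of all genes. At 6, 12 and 24 h the number was 6 each time, beside 16.9%, 5.96% and 18.0% of all genes. BIRC3, which encodes the ubiquitin ligase cIAP2, had the highest fold change of the list at 3 h: its mean went from 42.5 to 198 CPM, 4.66-fold (log2 2.22, edgeR adjusted p = 1.51e-11), and it was 2.04 higher on the log2 scale at 24 h (2.99e-11). TNFAIP3, which encodes the NF-κB inhibitor A20, was 1.57 higher at 3 h (adjusted p = 1.48e-09). At 1 h it was 0.61 higher (edgeR adjusted p = 0.0159), which was lost without replicate 2 or 3 at 0 h or either 1 h library (adjusted p from 0.0565 to 0.250). TNIP1, a partner of A20, was 0.70 higher at 24 h (adjusted p = 1.41e-08). The genes called lower were RBCK1 and SHARPIN, 2 of the listed parts of the linear ubiquitin ligase complex. RNF31, another part on the list, was not called at 12 or 24 h (log2 -0.07 and 0.13, edgeR adjusted p = 0.598 and 0.193). Its counts were not whole in 17 of 17 libraries. RBCK1 was lower at 24 h (log2 -0.38, edgeR adjusted p = 0.00198; -0.18 and 0.00983 with length and GC trends removed). SHARPIN, at 0.05 at 3 h (adjusted p = 0.780), was lower at 12 h (-0.36, 0.0198) and 24 h (-0.35, 0.0101), and neither SHARPIN call held with those trends removed (-0.11 and -0.02, adjusted p = 0.156 and 0.833). SHARPIN's 12 h call was also lost without replicate 1 or 2 at 0 h or replicate 2 at 12 h (0.0604 to 0.127), and its 24 h call without replicate 3 at 24 h (0.0521).

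**Figure D5:**
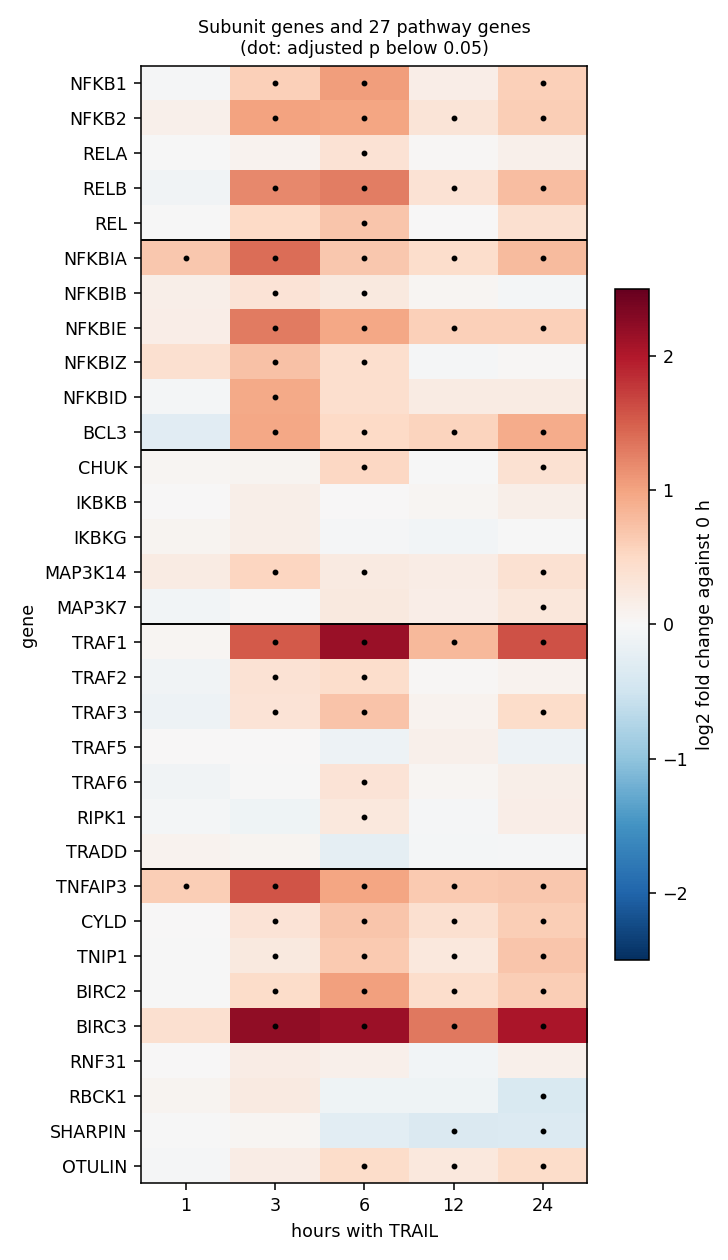
Log2 fold change against 0 h (colour scale, edgeR) of the 5 subunit genes and the 27 listed pathway genes (rows, grouped by role) at 1, 3, 6, 12 and 24 h (columns); a dot marks an adjusted p below 0.05. The rows of inhibitors and co-regulators are called throughout at 3 h, and TRAF1 and BIRC3 have the highest values, up to 2.22.

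For each member, the 3 non-member genes whose log2 CPM followed it most closely over the 17 libraries were taken from 11364 genes of at least moderate level, as a description without a test, since all genes share the same libraries and scaling. USP42, a deubiquitinase gene, was first for both RELB (Pearson r = 0.970, n = 17 libraries) and NFKB2 (r = 0.958). CDC42SE1, a gene for a small CDC42-binding protein, was also among the first 3 for both (r = 0.940 and 0.954). The remaining gene for each was on the pathway list, TRAF1 for RELB (r = 0.948) and NFKBIE for NFKB2 (r = 0.947). NFKB1 was followed most closely by HDAC9, a histone deacetylase gene (r = 0.970), ELF4, an ETS factor gene (r = 0.967), and SLC41A1, a magnesium transporter gene (r = 0.959). RELA was followed by SENP3, a SUMO protease gene (r = 0.935), POLR3D, a subunit gene of RNA polymerase III (r = 0.926), and LMNB2, a lamin gene (r = 0.925). For REL the closest were MCM8 (r = 0.838), BCL2L2 (r = 0.833) and CRTC3 (r = 0.829), below the values of the other members. The counts of CDC42SE1 and MCM8 were not whole in 17 of 17 libraries, those of BCL2L2 in 16 and those of SENP3 in 15.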

How the data were processed

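The authors deposited 1 table of gene-level expected counts (estimated fragments per gene), made with RSEM per the file name and not scaled. Per the submitters' processing notes, cutadapt 1.18, STAR 2.7.0f and the build hg38 were used; the annotation release and how counting used strand are not given in the sources used here. The library kit, for paired-end reads of mRNA, keeps strand, per the labels' protocols. Fractions occurred in 10.8% of the deposited expected counts, which were rounded. Of 58870 entries, 58597 matched GENCODE 29 (GRCh38) by Ensembl identifier without version, the source of positions and lengths; NFKBID was found by identifier only. Genes passing filterByExpr were fitted in edgeR 4.0.16 (R 4.3.3) by robust quasi-likelihood with TMM scaling (factors 0.939 to 1.06) and 1 mean per time over all 17 libraries, with Benjamini-Hochberg adjustment over 15365 genes and a threshold of 0.05. A standard error is the unshrunken coefficient divided by the root of its F. Log2 CPM for ratios and correlations used a prior count of 2, and ratios were tested with 100000 resamples (numpy 2.4.6). The fit was tested on simulated counts.

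The rule for named genes took the 5 members at every time, in each role of the pathway list the 2 highest and the 1 lowest fold change at 3 and 24 h, and for each member the 3 genes of highest Pearson r among those averaging 2 or more in log2 CPM. TRAF1 at 6 h, NFKBIA and TNFAIP3 at 1 h, NFKBIB from 3 to 6 h and SHARPIN at 6, 12 and 24 h were named after their values were seen. So were TRAF5 at 6 h, RNF31 at 12 and 24 h and AC010733.2. The members and lists were chosen with earlier results of these data known. Alternatives were RLE scaling, library size only, limma-voom (limma 3.58.1), DESeq2 1.42.0, no filter, a filter at a mean count of 10, the replicate number as a block, only the 2 times compared, close pairs averaged, length and GC trends removed (natural splines with 4 degrees of freedom), unrounded counts, a prior count of 0.5, the longest transcript, and each library left out in turn. Promoter windows are from RefSeq, GRCh38.p14. A marker of the fixed list is not reported here.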

Additional observations from a re-analysis of the deposited data

How the results depend on the processing

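The calls of NFKB1, NFKB2 and RELB at 3, 6 and 24 h and of RELA at 6 h, against 0 h, kept their direction and their side of the threshold under every alternative run. Those of REL, which had 52 to 110 counts per library, did not. The cause of the changes that follow was not tested. With library size only, RELA at 24 h was at 0.20, NFKB2 from 3 to 6 h at 0.044 and REL from 6 to 12 h at -0.65 (no longer called, adjusted p = 0.0675). By limma-voom REL from 6 to 12 h was at -0.68 (adjusted p = 0.0504), and over all times its adjusted p was 0.0724. With each close pair averaged, REL was at 0.70 at 6 h and at -0.70 from 6 to 12 h (neither called, adjusted p = 0.0701 and 0.0878), NFKB2 at 0.29 from 12 to 24 h, the adjusted p of REL over all times was 0.0890 and that of NFKB2 over RELB 0.0818. With length and GC trends removed, REL was at 0.0069, 0.58, 0.46 and -0.12 at 1, 3, 6 and 12 h and at -0.12 from 3 to 6 h. In that fit RELA was at 0.18 at 24 h, NFKB2 at 0.030 and RELB at 0.30 from 3 to 6 h, and the adjusted p of RELB over REL was 0.0132. With AC010733.2 added, REL was at 0.025 at 1 h and 0.55 at 24 h, and the adjusted p of RELB over REL was 0.0218. By longest transcript, NFKB1 ranked 3 and RELB 4 at 0 and 1 h, and RELA ranked 1 and NFKB2 2 at 1 and 12 h. Of the pathway list, SHARPIN was called lower at 6 h with library size only, no filter or DESeq2, and TRAF5 instead with trends removed. At 12 h, 0 genes of the list were called lower with trends removed. With library size only, NFKBIB and IKBKG at 24 h and SHARPIN at 3 h were at 0.027, 0.071 and -0.024. With trends removed, NFKBIB and IKBKG at 24 h and MAP3K7 and SHARPIN at 3 h were at 0.13, 0.20, 0.060 and -0.049. Deviations of same-numbered libraries did not all correlate: their r ran from -0.47 to 0.52 (median 0.05, 40 pairs), against -0.41 to 0.45 (median -0.01, 80 pairs), and 8 of 17 libraries correlated best with their own number, so the libraries were not treated as paired. A replicate block put NFKB1 and REL at 1 h at 0.023 and 0.012, changed no call of a member, and gave 1511 genes higher and 1397 lower at 3 h, against 1389 and 1338. Leaving out 1 library at a time, log2 fold changes against 0 h ran from -0.16 to 0.098 (NFKB1, 1 h), -0.18 to 0.14 (REL, 1 h), -0.085 to 0.049 (RELA, 1 h), 0.59 to 0.85 (REL, 6 h), -0.13 to 0.17 (REL, 12 h), -0.039 to 0.051 (RELA, 12 h), 0.27 to 0.42 (RELB, 12 h) and 0.22 to 0.69 (REL, 24 h). Those from the time before ran from -0.096 to 0.042 (NFKB2, 6 h), -0.82 to -0.60 (REL, 12 h) and 0.21 to 0.68 (REL, 24 h). Adjusted p-values of ratios ran from 0.0191 to 0.0751 (NFKB2 over RELB), 0.0075 to 0.0742 (RELB over NFKB1) and 0.0378 to 0.544 (RELB over REL). Pathway genes called higher at 1 h numbered 1 to 2, and those called lower 0 to 1 at 6 h, 0 to 1 at 12 h and 1 to 2 at 24 h. MAP3K7 and SHARPIN at 3 h and IKBKG at 24 h ran from -0.12 to 0.075, -0.047 to 0.16 and -0.054 to 0.037.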
